A study of Mus musculus with 14 samples.

Results

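The unfolded protein and integrated stress response was followed through 10 listed genes, of the 23375 genes measured. They are the endoplasmic reticulum (ER) chaperones Hspa5, Hsp90b1 and Calr, the ER-associated degradation factor Herpud1, and the ATF4 pathway genes Atf4, Ddit3, Atf3, Trib3, Asns and Chac1. All 10 were in the table, and 9 passed the filter on low values (at least 1 FPKM in at least 2 libraries). Trib3 did not pass it and is described by its values only. Values are FPKM as deposited, fragments per length of transcript and per mapped fragments of the library, so levels of different genes can be compared.

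The RNA was poly(A)-selected from mouse brain in 14 libraries, which form 7 groups of 2. Adult KO3 mice carried deletions of the H19, IG and Rasgrf1 DMRs, where a DMR is a differentially methylated region that controls imprinted genes. They were set against adult wild-type set 2. Adult KO2 mice carried the H19 and IG deletions without the Rasgrf1 one, and were set against adult wild-type set 1. At E19.5, an embryonic stage shortly before birth, KO2 brains with the same pair of deletions and KO7 brains were both set against E19.5 wild type. KO7 stands for deletions at Peg3, Gnas, Kcnq1, Snrpn, Igf2r, Grb10 and Nespas. From what is known of the study rather than from the labels, KO2 and KO3 animals combined a pair of maternal genomes and KO7 animals a pair of paternal genomes, made with haploid embryonic stem cells. The deletions and the parental origin of the genomes cannot be told apart in these groups. The labels do not say that the libraries of a group came from separate animals or from more than 1 cell line, nor give strain, sex or an age beyond the stage, so the p-values rest on the spread between libraries, part of which may be technical.

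Proteins entering the ER fold there with the help of chaperones, and an excess of unfolded protein is sensed by IRE1 (gene Ern1), PERK (gene Eif2ak3) and ATF6. IRE1 splices Xbp1 messenger RNA, cleaved ATF6 becomes a transcription factor, and PERK phosphorylates eIF2 alpha. That phosphorylation slows translation in general while the ATF4 protein is made, and it is shared with kinases that sense amino acid shortage, heme shortage and viral RNA, hence the name integrated stress response. ATF4 then raises genes of amino acid synthesis, amino acid transport and tRNA charging, and with sustained stress Ddit3 (CHOP), a transcription factor tied to cell death. Much of this control acts on protein and splicing, so a messenger RNA level is one readout of it.

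Windows around the members' start sites were searched for sequence elements by which these factors are known to act, and the stretches with a match to either of 2 elements are shown because they mark different members. All 10 members matched a RefSeq promoter window of 300 bases (250 before to 50 after the start, GRCm38.p6 build). The ER stress element, through which ATF6 or XBP1 acts together with the factor NF-Y, is CCAAT and CCACG with 9 free bases between them. It was looked for on both strands, and its matches are in capitals:
Hspa5, chr2:34771995-34772073, plus strand: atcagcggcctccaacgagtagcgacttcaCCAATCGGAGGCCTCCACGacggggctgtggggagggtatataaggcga
Hsp90b1, chr10:86705518-86705671, minus strand: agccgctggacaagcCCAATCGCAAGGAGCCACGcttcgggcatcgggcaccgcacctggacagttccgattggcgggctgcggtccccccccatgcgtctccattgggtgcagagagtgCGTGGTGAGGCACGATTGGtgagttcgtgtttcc
Calr, chr8:84847045-84847123, minus strand: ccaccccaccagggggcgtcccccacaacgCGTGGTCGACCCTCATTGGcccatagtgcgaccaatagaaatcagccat
The 3 chaperones were the only members with a match. The element lay 65 to 47 bases before the start of Hspa5 and 162 to 144 bases before that of Calr, and Hsp90b1 held 2 copies, at 212 to 194 and 107 to 89 bases. Of all 32851 windows, 39 (0.119%) held it. Its shorter part CCACG, which overlaps the full element, was in 7 members' windows and in 32.8% of all windows.

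The C/EBP-ATF composite element TGATGNAAN, through which ATF4 and its partners act, is in capitals in the windows of 4 members, with 3 of the 4 matches on the strand opposite to the gene:
Asns, chr6:7693210-7693254, minus strand: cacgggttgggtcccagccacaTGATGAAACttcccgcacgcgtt
Chac1, chr2:119351023-119351081, plus strand: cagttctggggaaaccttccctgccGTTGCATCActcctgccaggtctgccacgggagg
Atf3, chr1:191183411-191183469, minus strand: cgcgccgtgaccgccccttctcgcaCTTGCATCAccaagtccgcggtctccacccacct
Herpud1, chr8:94386291-94386349, plus strand: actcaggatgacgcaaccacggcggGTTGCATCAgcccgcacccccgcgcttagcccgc
Trib3 also held a match, after its start site, which makes 5 members of 10, while 3.95% of all windows held one. Of the ATF4 pathway genes, Atf4 and Ddit3 had a match to neither of these 2 elements, and Herpud1, the degradation factor, had the C/EBP-ATF element. The cyclic AMP response element TGACGTCA (1.79% of all windows) and the unfolded protein response element TGACGTGG (0.676%) had no match in any member's window. A match describes the letters in these windows and no binding was measured.

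Library-wide differences touch the members' values. In the libraries of adult KO3 and of set 2, 4 in all, 9994 genes (42.8%) were listed at 0 throughout, and the smallest per-gene maximum above 0 was 1.02 FPKM, so a 0 there may be a removed low value, and KO3 and the set it was compared with share this. The 2 adult KO3 libraries differed from each other by a median of 0.307 (absolute log2 difference over tested genes), against 0.121 to 0.171 between the libraries of the other groups. Neuron markers (Snap25, Syt1, Rbfox3, Nefl) were above 0 in all libraries, with a summed level of 1268 to 1750 FPKM in adults and 325 to 514 FPKM at E19.5. In bulk brain RNA, fewer cells of a type and less RNA per cell cannot be told apart.

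The chaperones were the most abundant members. Averaged over the 14 libraries, Calr, a calcium-binding chaperone of glycoproteins, had 218 FPKM, Hsp90b1 (GRP94, the ER form of HSP90) 136 FPKM, and Hspa5 (BiP, the ER form of HSP70, which also holds the sensors inactive) 109 FPKM. Atf4 averaged 63.6 FPKM, Asns 40.5, Herpud1 27.0, Ddit3 26.2, Chac1 4.65 and Atf3 0.84 FPKM.

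The group order of Hspa5 levels ran from adult KO3 (169.6 ± 18.9 FPKM, SD, n = 2 here and in each group) through wild-type set 2 (124.1 ± 2.14), adult KO2 (115.7 ± 1.27), E19.5 KO7 (104.8 ± 11.6), E19.5 wild type (92.6 ± 7.34) and wild-type set 1 (86.4 ± 8.36) to E19.5 KO2 (71.2 ± 5.29). Among neighbours in that order, the libraries of E19.5 KO7 and E19.5 wild type overlapped, as did those of E19.5 wild type and wild-type set 1. The order for Atf4 was different: adult KO3 (86.5 ± 12.8 FPKM), E19.5 KO7 (80.8 ± 1.13) and E19.5 KO2 (74.6 ± 2.45) stood above E19.5 wild type (53.4 ± 0.899), adult KO2 (52.5 ± 0.907), wild-type set 2 (51.4 ± 3.23) and wild-type set 1 (45.6 ± 1.63). No library of the upper 3 groups overlapped one of the lower 4, while adult KO3 overlapped with E19.5 KO7, and E19.5 wild type, adult KO2 and wild-type set 2 overlapped in turn.

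**Figure D1:**
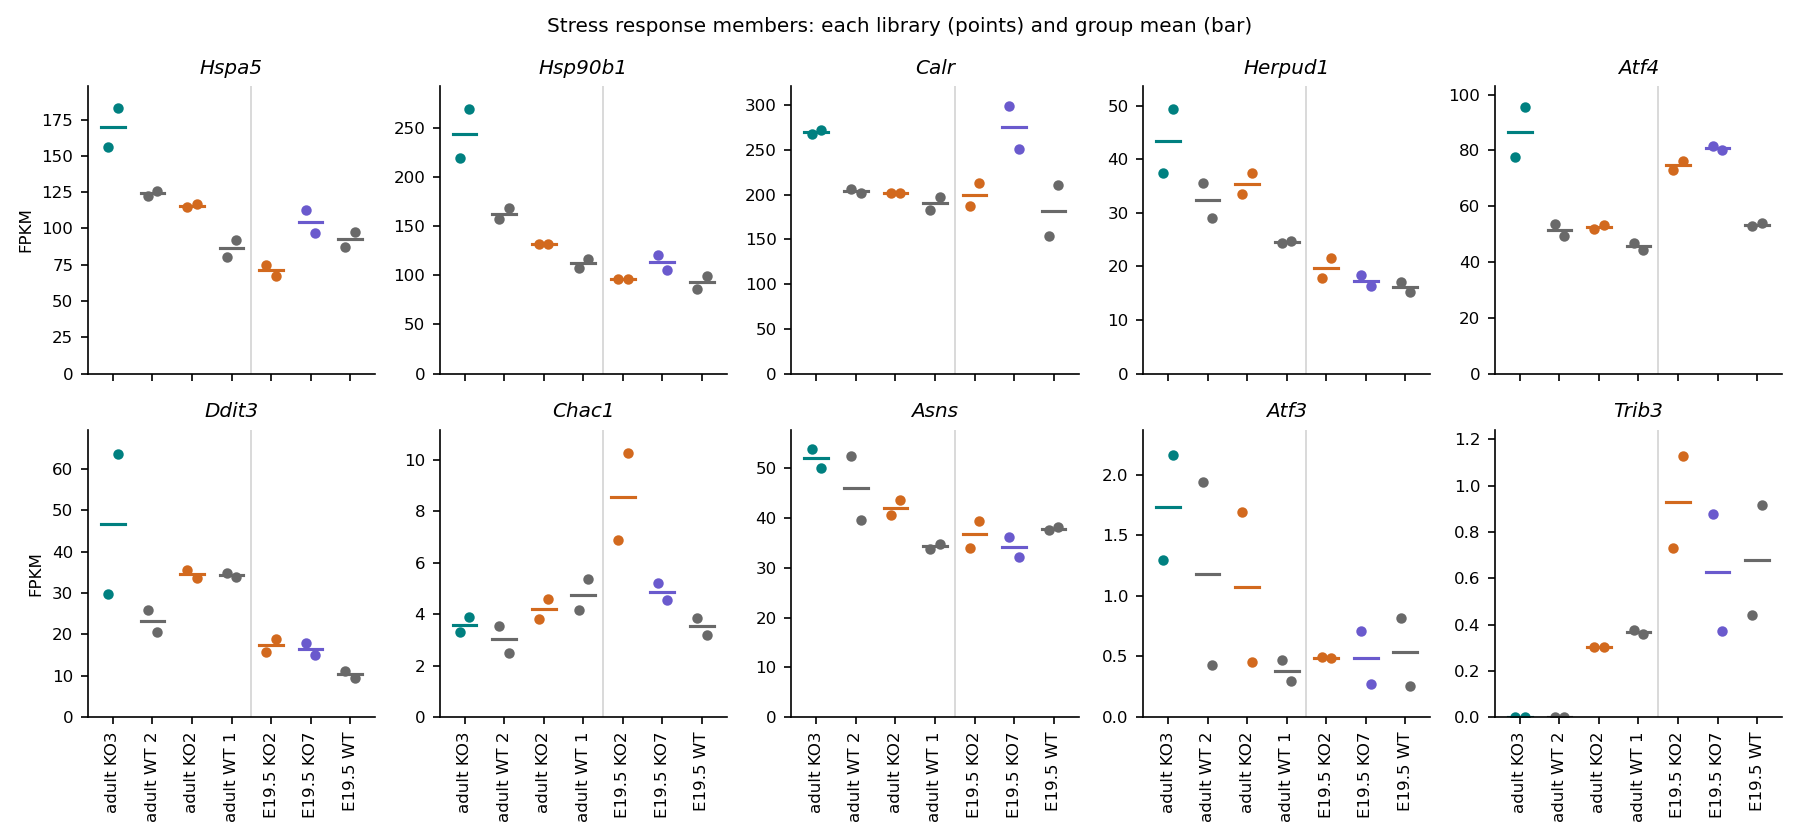
FPKM of each member (y axis, linear, from 0) in each library (points) with the group mean (bar) in 7 groups of 2 libraries; the grey line parts adult from E19.5 groups. Atf4 is high in adult KO3, E19.5 KO7 and E19.5 KO2, Chac1 is highest in E19.5 KO2 (6.88 and 10.3 FPKM), and Ddit3 is above 20 FPKM in all adult libraries and below it in all E19.5 libraries.

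Adult KO3 brains had higher messenger RNA of 4 members than wild-type set 2, namely Atf4, Ddit3, Hsp90b1 and Hspa5, of which Hsp90b1 (0.00, log2) and Hspa5 (-0.08) were no longer higher under quantile scaling. No member was lower by the test. The 4 of 9 compare with 22.1% of all tested genes called in this comparison (13.9% higher and 8.2% lower), and under quantile scaling the calls over all genes split into 1611 higher and 1793 lower, against 1990 and 1174 on the deposited scale. All 9 differences were positive (6 of 9 under quantile scaling), with a median of 0.41 (log2), against 0 for all tested genes, and in 6 of the 9 both KO3 libraries lay above both wild-type libraries, which was true of 29.2% of all tested genes. The tested genes include some listed at 0 in all 4 libraries. These count in the median and shares of all tested genes, although they can be neither called nor apart.

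Atf4, the transcription factor at the centre of the integrated stress response, had 77.5 and 95.6 FPKM in the KO3 libraries, against 53.7 and 49.1 FPKM in set 2. The groups did not overlap. The mean was 68.3% higher in KO3, and the log2 difference was 0.73 (SE 0.12, limma adjusted p = 0.00937). Ddit3 had 29.8 and 63.6 FPKM in KO3, against 26.0 and 20.6 FPKM in set 2. Its log2 difference was 0.89 (SE 0.27, adjusted p = 0.0379), and the second KO3 library was far above the first, which lay close to the set 2 values. The first KO3 library also lay below both set 1 libraries (35.0 and 33.8 FPKM). Set 2 was itself below set 1 for Ddit3 without passing (-0.55, limma adjusted p = 0.157).

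Hsp90b1 had 218.7 and 269.1 FPKM in KO3, against 156.7 and 168.4 FPKM in set 2, a log2 difference of 0.58 (SE 0.14, adjusted p = 0.0190). Hspa5 had 156.3 and 183.0 FPKM in KO3, against 122.6 and 125.7 FPKM in set 2, a log2 difference of 0.44 (SE 0.13, adjusted p = 0.0383). Neither chaperone overlapped between the groups. Under quantile scaling, which gives every library the same distribution of values, the difference of Calr was -0.24, while Atf4 (0.44, adjusted p = 0.0137) and Ddit3 (0.68, adjusted p = 0.0495) still passed.

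The other 5 tested members did not pass. Calr had 267.4 and 272.1 FPKM in KO3, against 205.7 and 202.2 FPKM in set 2 (0.40, adjusted p = 0.0915). Herpud1, an ER membrane protein that aids the disposal of misfolded proteins, had 37.4 and 49.4 FPKM in KO3, against 35.5 and 29.1 FPKM in set 2 (0.41, adjusted p = 0.0788). Both were separated between the groups without passing the threshold. Asns, which makes asparagine, Chac1, which breaks down glutathione, and Atf3, a transcription factor induced by ATF4, overlapped between the groups, with adjusted p from 0.347 to 0.492. Trib3, a pseudokinase induced by ATF4 and CHOP, was listed at 0 in all 4 libraries.

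The KO3 calls depended on single libraries and on the groups that share the fit. Without the second KO3 library Atf4 alone passed (0.58, adjusted p = 0.0370), with Ddit3 at 0.35 (adjusted p = 0.284), Hsp90b1 at 0.43 (0.114) and Hspa5 at 0.33 (0.225). Without the first KO3 library 5 members passed, Herpud1 (0.60, adjusted p = 0.00944) in addition. Leaving out the first set 2 library ended all 4 calls (Atf4 0.80, adjusted p = 0.0608), and leaving out the second left Atf4 alone (0.67, adjusted p = 0.0423). Over all 14 fits that each left out 1 library, Atf4 passed in 13, Hsp90b1 in 11, Hspa5 in 5 and Ddit3 in 3, so the calls of Hspa5 and Ddit3 also ended without some libraries of other groups. In a fit of the 4 compared libraries alone none of the 4 passed (limma adjusted p 0.36 to 0.385).

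**Figure D2:**
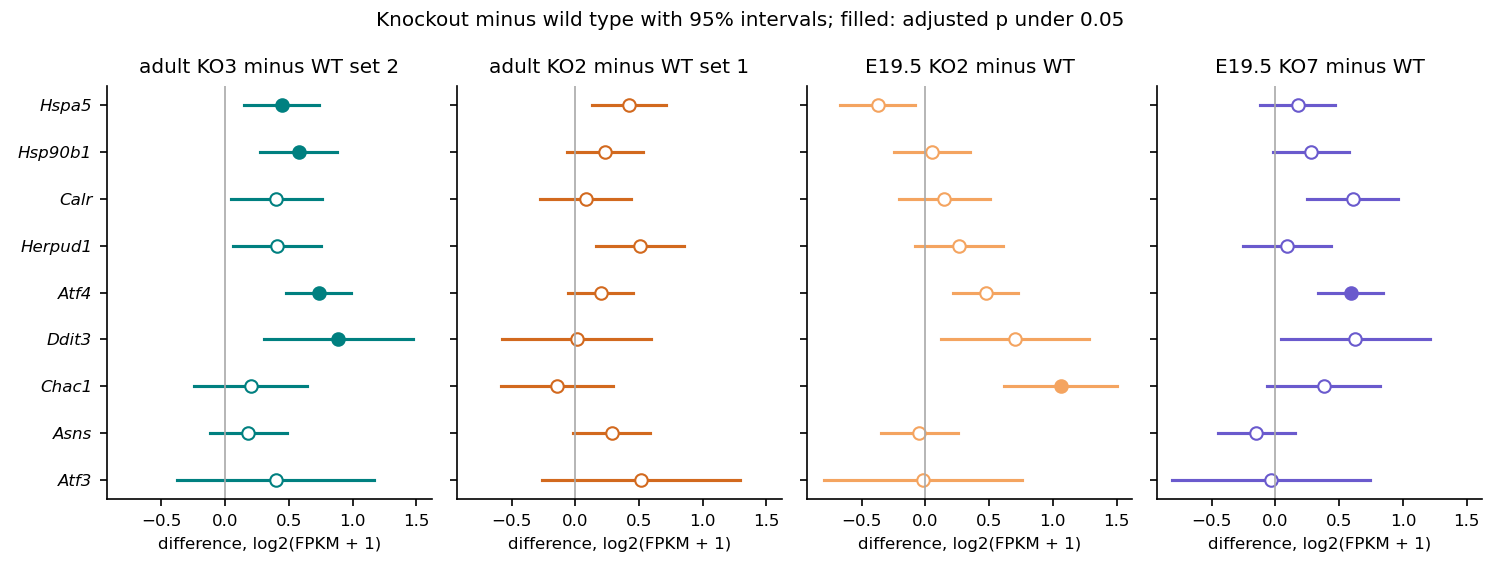
Difference of each tested member between knockout and wild type (x axis, log2(FPKM + 1), point) with its 95% interval (line) in the 4 knockout comparisons; filled points have an adjusted p under 0.05. Adult KO3 has 4 filled points, E19.5 KO2 and KO7 have 1 each (Chac1 and Atf4), and adult KO2 has none.

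Highly expressed genes in general were higher in KO3 than in set 2. The median log2 difference was -0.12 for genes of 3 to 10 FPKM (mean over 14 libraries) and -0.03 at 10 to 30 FPKM. It was 0.20 at 30 to 100 FPKM and 0.49 at 100 to 300 FPKM, where 48.4% of genes were called higher. Hspa5 (0.44), Hsp90b1 (0.58) and Calr (0.40) fall in that last class and lay close to its median. Atf4 (0.73) stood above the median of the 30 to 100 FPKM class, and Ddit3 (0.89) and Herpud1 (0.41) above that of the 10 to 30 FPKM class. No such slope was seen in adult KO2, where the median at 100 to 300 FPKM was 0.02. Set 2 against set 1 had the opposite slope, with medians of -0.34 at 100 to 300 FPKM and -0.69 above 300 FPKM. The 99th percentile of tested genes was 273 and 267 FPKM in the set 2 libraries. It was 375 and 555 FPKM in KO3, and 399 and 384 FPKM in set 1. Which of the compared groups the slope comes from was not tested.

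**Figure D3:**
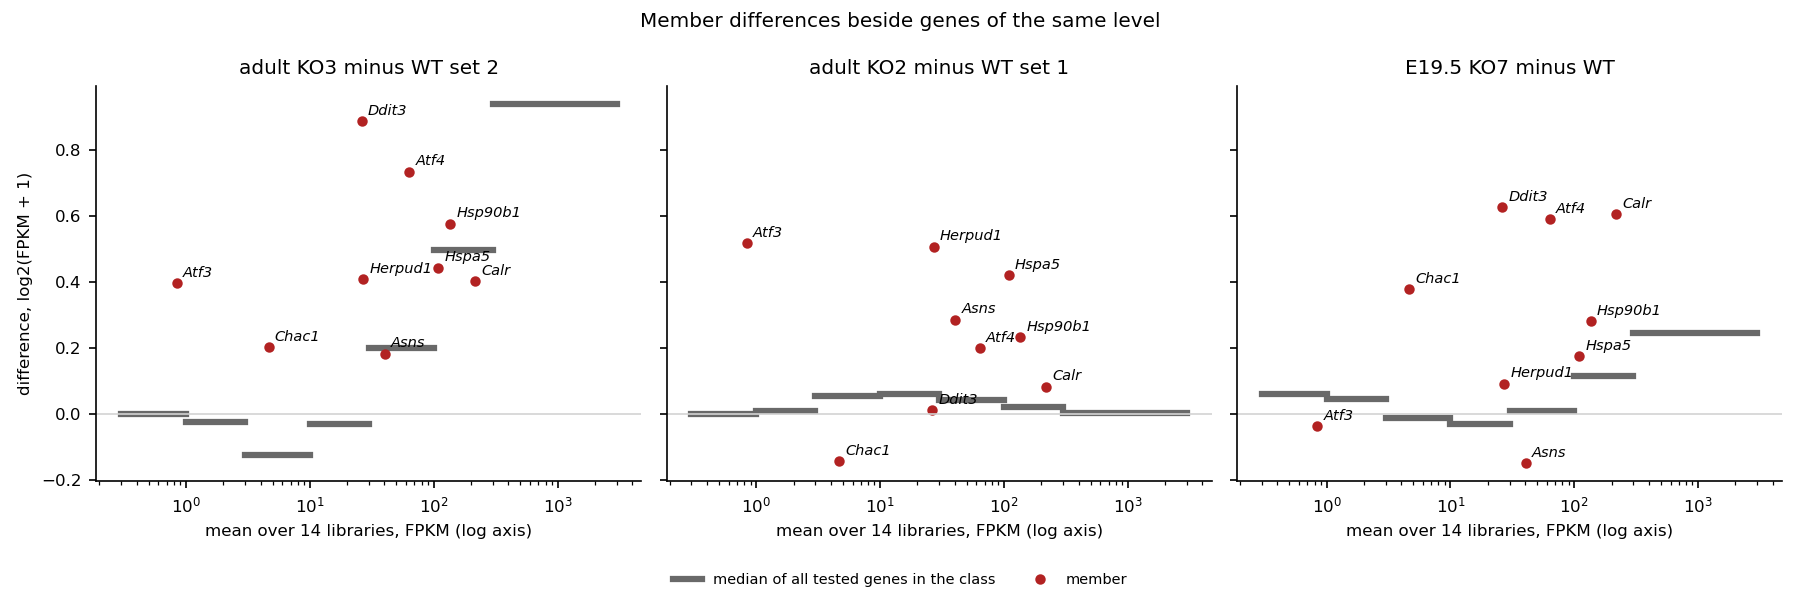
Difference of each tested member (red points, log2(FPKM + 1)) against its mean FPKM over 14 libraries (log axis), with the median difference of all tested genes in each level class (grey bars), in adult KO3, adult KO2 and E19.5 KO7 against their wild types. In adult KO3 the class medians climb to 0.49 at 100 to 300 FPKM and 0.94 above 300 FPKM, and the 3 chaperones lie near them.

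Of 79 further pathway genes in 5 lists, 77 were tested (Gdf15 and Fgf21 were not). In KO3 11 were higher and 3 lower than in set 2, with a median of 0.05, against 6 higher and 6 lower under quantile and 9 and 6 under median-of-ratios scaling. The 14 of 77 called are a smaller share than the 22.1% of all tested genes, and the 11 higher are a share close to the 13.9% of all tested genes, so the counts do not set these lists apart. Among 17 other ER chaperones and folding enzymes, 5 rose and none fell: Manf, a secreted ER protein, with 22.6 and 26.0 FPKM in KO3 against 14.9 and 17.2 FPKM in set 2 (0.57, adjusted p = 0.0120), Ppib (0.51), Dnajb11 (0.42), Pdia6 (0.47) and Creld2 (0.53). Under quantile scaling Manf and Ppib alone of these passed. Of 25 tested genes in the list of other ATF4 pathway genes, 3 rose. Cebpb, a partner of ATF4, had 5.19 and 18.6 FPKM in KO3 against 2.24 and 1.68 FPKM in set 2 (1.90, adjusted p = 0.0135, and 1.07, adjusted p = 0.0492, without the second KO3 library). Ddit4, an inhibitor of mTORC1 signalling, had 16.2 and 30.1 FPKM in KO3 against 12.6 and 12.2 FPKM in set 2 (0.79, adjusted p = 0.0379), and Psph, of serine synthesis, had 10.3 and 13.7 FPKM in KO3 against 6.33 and 8.60 FPKM in set 2 (0.62, adjusted p = 0.0352). Of the 12 aminoacyl-tRNA synthetases, Sars (0.53), Nars (0.38) and Tars (0.40) rose, of which Tars alone passed under quantile scaling. By level, Ppib, Pdia6, Sars and Nars fall in the class of 30 to 100 FPKM. There 31.5% of genes were called higher, with a median of 0.20. Manf, Dnajb11, Creld2, Ddit4 and Tars fall in that of 10 to 30 FPKM (15.2%, median -0.03). Psph falls in that of 3 to 10 FPKM (5.79% called higher) and Cebpb in that of 1 to 3 FPKM (3.62%).

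Genes for the stress sensors were lower where they passed. Of 12 sensors and transducers none rose and 3 fell in KO3, where 8.2% of all tested genes were called lower. Atf6 and Eif2ak4 fall in the class of 3 to 10 FPKM, with 10.8% called lower and a median of -0.12. Ern1 falls in the class of 1 to 3 FPKM, with 5.74% called lower and a median of -0.02. In a fit of the 4 compared libraries alone none of the 3 passed (limma adjusted p 0.36 to 0.397). Ern1, the gene for IRE1, had 1.45 and 0.496 FPKM in KO3, against 2.85 and 2.2 FPKM in set 2 (-0.87, adjusted p = 0.0223). Eif2ak4, the gene for the amino acid sensor GCN2, had 4.56 and 3.61 FPKM in KO3, against 6.69 and 5.62 FPKM in set 2 (-0.50, adjusted p = 0.0407). Atf6 had 9.03 and 5.53 FPKM in KO3, against 12.2 and 11.9 FPKM in set 2 (-0.69, adjusted p = 0.0481). None of 11 genes of ER-associated degradation passed (limma, 3 at an unadjusted p under 0.05), and 2 were lower under either scaling. Without the second KO3 library or the second set 2 library 1 of these 77 genes passed, against 14 with all libraries. Without the first set 2 library none did, and without the first KO3 library 36 did.

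Markers of blood and of other cells moved with KO3. The summed level of the red cell markers (Hbb-b1, Hba-a1, Alas2, Slc4a1) was 965 to 1008 FPKM in KO3, against 60.8 to 117 FPKM in set 2, with 2 of 4 higher by the test and Slc4a1 listed at 0 in all 4 libraries. The neuron sum was 1749 to 1750 FPKM in KO3, against 1570 to 1611 FPKM in set 2, with Rbfox3 higher and Syt1 lower of 4. The endothelial sum was 95.2 to 124 FPKM in KO3, against 71.2 to 77.0 FPKM in set 2, with 1 of 4 higher. Sums also stood apart for choroid plexus (769 to 833 FPKM in KO3, against 504 to 548 FPKM in set 2, with 0 of 4 called), astrocytes (945 to 964 FPKM, against 744 to 884 FPKM, 0 of 5 called), meninges and fibroblasts (22.1 to 25.7 FPKM, against 18.9 to 20.7 FPKM, 0 of 5 called) and cytosolic heat shock genes (153 to 158 FPKM, against 123 to 142 FPKM, 1 of 5 higher). The median log2 difference of the single markers was -0.03 for astrocytes and -0.11 for meninges and fibroblasts, so these higher sums did not hold for most of their markers. It was 0.28 for choroid plexus and 0.37 for heat shock genes. The part of these markers in the members' differences was not tested.

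**Figure D4:**
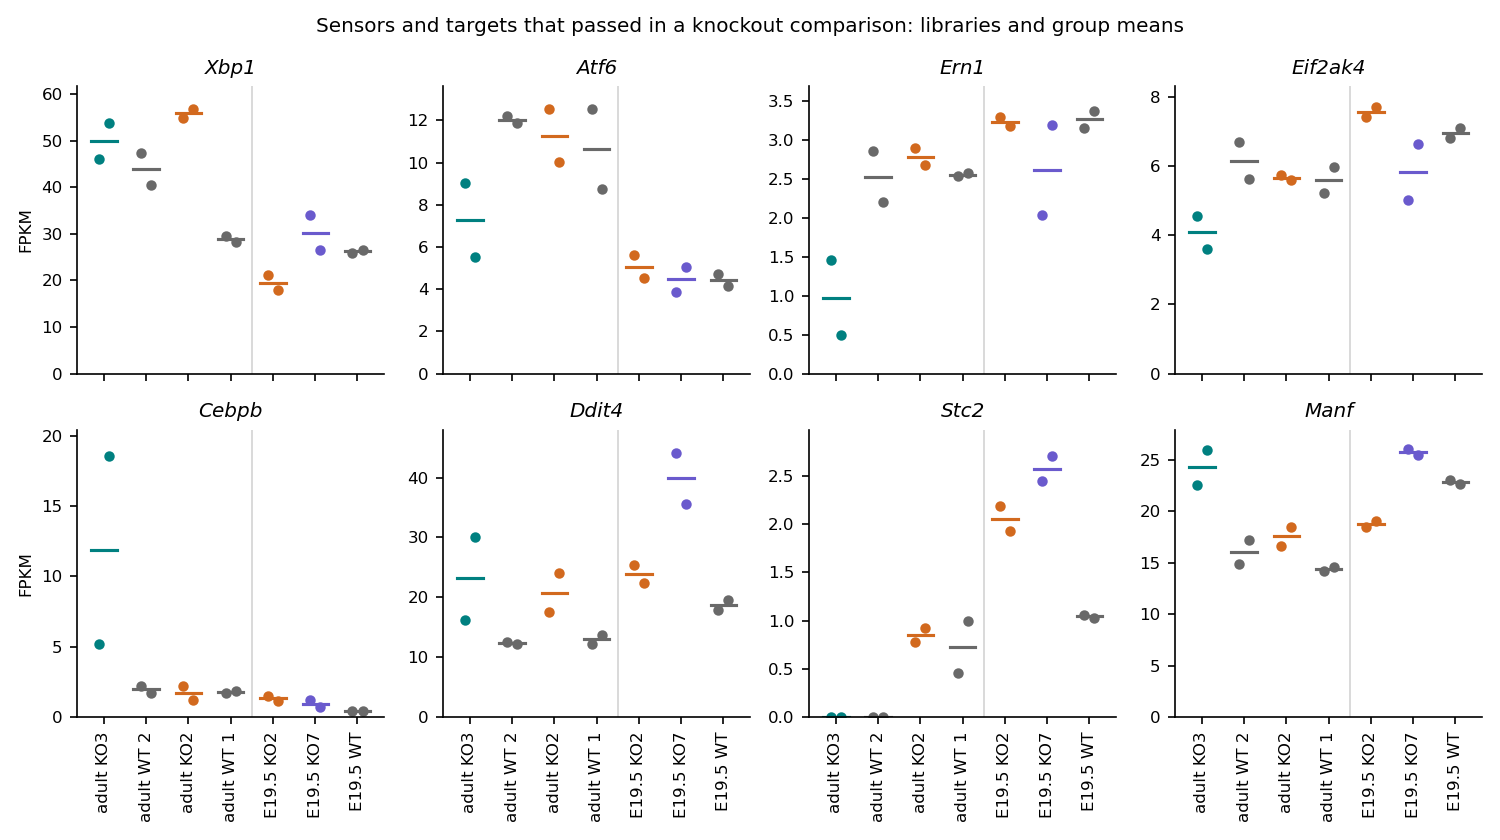
FPKM of 8 sensors and targets (y axis, linear, from 0) in each library (points) with the group mean (bar), for genes that passed in at least 1 knockout comparison. Xbp1 is at 54.9 and 56.8 FPKM in adult KO2 against 29.5 and 28.2 FPKM in wild-type set 1, Ern1, Eif2ak4 and Atf6 are low in adult KO3, and Stc2 and Ddit4 are high in E19.5 KO7.

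Adult KO2 brains showed no member that passed against wild-type set 1. The 0 of 9 compare with 0.154% of all tested genes called (22 genes by limma, with 1051 at an unadjusted p under 0.05, Hspa5 and Herpud1 of the members among them). Differences were positive in 8 of 9 (7 under either scaling, where Ddit3 turned), with a median of 0.23, against 0.04 for all tested genes, and both KO2 libraries lay above both wild-type libraries in 6 of 9, against 30% of all tested genes.

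Hspa5 had 114.8 and 116.6 FPKM in KO2, against 80.5 and 92.3 FPKM in set 1. The mean was 33.9% higher in KO2, with a log2 difference of 0.42 (95% interval 0.13 to 0.71, limma adjusted p = 0.455). Herpud1 had 33.5 and 37.5 FPKM in KO2, against 24.4 and 24.8 FPKM in set 1 (0.51, interval 0.16 to 0.85, adjusted p = 0.434). Neither overlapped between the groups, and neither passed after adjustment over all genes. With both adult wild-type sets pooled, the difference was 0.16 for Hspa5 and 0.32 for Herpud1. Hspa5 averaged 124.1 FPKM in set 2, above the 115.7 FPKM in KO2.

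Hsp90b1 had 131.4 and 131.8 FPKM in KO2, against 107.5 and 116.3 FPKM in set 1 (0.23, adjusted p = 0.802). Asns had 40.7 and 43.5 FPKM in KO2, against 33.8 and 34.9 FPKM in set 1 (0.29, adjusted p = 0.71). Atf4 had 51.9 and 53.1 FPKM in KO2, against 46.7 and 44.4 FPKM in set 1 (0.20, adjusted p = 0.802). The libraries of these 3 did not overlap between the groups, and none of the 3 passed. Ddit3 was near the same level in both groups, at 35.6 and 33.8 FPKM in KO2 and 35.0 and 33.8 FPKM in set 1 (0.01, adjusted p = 0.995). Chac1 was the 1 member with a negative difference, at 3.81 and 4.58 FPKM in KO2 and 4.14 and 5.36 FPKM in set 1 (-0.14, adjusted p = 0.941). Calr had 201.3 and 201.7 FPKM in KO2, against 183.0 and 197.7 FPKM in set 1 (0.08, adjusted p = 0.959). Atf3 had 1.69 and 0.451 FPKM in KO2, against 0.469 and 0.297 FPKM in set 1 (0.52, adjusted p = 0.832), and overlapped between the groups. Trib3 was low in both, with 0.304 and 0.302 FPKM in KO2, against 0.376 and 0.357 FPKM in set 1.

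One further pathway gene of 77 passed in adult KO2. Xbp1, whose spliced message gives the transcription factor of the IRE1 branch, had 54.9 and 56.8 FPKM in KO2, against 29.5 and 28.2 FPKM in set 1 (0.93, adjusted p = 0.0272). The FPKM of the gene do not tell its spliced from its unspliced form. The call ended without any 1 of the 4 compared libraries and without either E19.5 wild-type library, with the difference at 0.90 to 0.96 throughout. It also ended with both adult wild-type sets pooled (limma adjusted p = 0.739), and Xbp1 was at 47.4 and 40.6 FPKM in set 2. Of the 17 other ER chaperones 16 had positive differences (15 under either scaling), with a median of 0.21 against 0.04 for all genes. None of the 17 passed (limma, 5 at an unadjusted p under 0.05). Some marker sums also stood apart in adult KO2, with no marker called. The red cell sum was 531 to 543 FPKM in KO2, against 24.5 to 356 FPKM in set 1. The sums of microglia (66.6 to 70.1, against 72.5 to 88.3 FPKM) and meninges (17.4 to 19.9, against 23.7 to 38.6 FPKM) were lower. The heat shock sum was higher and the pituitary sum lower. The choroid plexus sum was 1157 and 118 FPKM in KO2. The part of these markers in the differences of Hspa5, Herpud1 and Xbp1 was not tested.

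Between the 2 adult knockouts, the changes themselves were compared, each measured from its own wild-type set. None of the 9 members passed (2 had an unadjusted p under 0.05), and 0.0489% of all tested genes did (7 by limma, with 4020 at an unadjusted p under 0.05). The KO3 change of Atf4 exceeded the KO2 change by 0.53 (95% interval 0.17 to 0.89, adjusted p = 0.0987), and that of Ddit3 by 0.87 (adjusted p = 0.162). The sets themselves differed: Hspa5 (0.52, adjusted p = 0.0188) and Hsp90b1 (0.53, adjusted p = 0.0186) were higher in set 2 than in set 1, in a comparison with 20.9% of all genes called (6.84% higher, that is 980 higher and 2010 lower, against 1736 and 1958 under quantile scaling), and neither call held without either set 2 library.

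At E19.5, KO2 brains had a higher level of 1 member, Chac1, and KO7 brains of another, Atf4. Both comparisons use the same 2 wild-type libraries, so their values are not independent. In KO2, 1 of 9 members passed, against 1.28% of all tested genes (0.88% higher). In KO7, 1 of 9 passed, against 4.45% of all tested genes (3.02% higher).

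Chac1 had 6.88 and 10.3 FPKM in E19.5 KO2, against 3.86 and 3.19 FPKM in E19.5 wild type. The KO2 mean was 143% higher, and the log2 difference was 1.06 (SE 0.20, adjusted p = 0.0312). It had 5.20 and 4.56 FPKM in KO7 (0.38, adjusted p = 0.304). The groups did not overlap in either comparison, but the KO2 call ended when any E19.5 library was left out (adjusted p 0.0527 to 0.224).

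Atf4 had 81.6 and 80.0 FPKM in KO7, against 52.8 and 54.0 FPKM in E19.5 wild type (0.59, SE 0.12, adjusted p = 0.0191), and the mean was 51.4% higher. In E19.5 KO2 it had 72.8 and 76.3 FPKM (0.47, 95% interval 0.22 to 0.73, adjusted p = 0.0813). All 4 knockout libraries were well above both wild-type ones. The KO7 call ended when any KO7 or E19.5 wild-type library was left out (adjusted p 0.0711 to 0.159), with the difference at 0.57 to 0.61 throughout.

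Ddit3 had 15.8 and 19.0 FPKM in E19.5 KO2 and 18.0 and 14.9 FPKM in KO7, against 11.0 and 9.56 FPKM in E19.5 wild type. Knockout and wild-type libraries did not overlap, and neither difference passed (0.70, adjusted p = 0.223 in KO2, and 0.63, adjusted p = 0.204 in KO7). When both KO3 and both set 2 libraries were left out of the fit, a setting chosen after the data were seen, Ddit3 (adjusted p = 0.0175) and Atf4 (0.0149) joined Chac1 (0.0187) in KO2, and Ddit3 (0.0164) and Calr (0.0384) joined Atf4 (0.00478) in KO7.

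None of the 3 ER chaperones passed at E19.5, and the knockouts were not tested against each other. Hspa5 had 74.9 and 67.5 FPKM in KO2, against 87.4 and 97.7 FPKM in wild type (-0.37, 95% interval -0.67 to -0.08, adjusted p = 0.198), and 112.9 and 96.6 FPKM in KO7 (0.17, adjusted p = 0.481). Calr had 298.8 and 251.2 FPKM in KO7, against 153.9 and 210.2 FPKM in wild type (0.60, interval 0.25 to 0.96, adjusted p = 0.0599), and 186.7 and 213.3 FPKM in KO2 (0.15, adjusted p = 0.709). Hsp90b1 had 120.7 and 105.0 FPKM in KO7 and 95.7 and 96.1 FPKM in KO2, against 86.1 and 99.3 FPKM in wild type, with adjusted p of 0.263 in KO7 and 0.897 in KO2. For Hspa5, KO2 libraries lay below and KO7 libraries overlapped with the wild type.

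Asns, at 32.1 to 39.5 FPKM over the 6 E19.5 libraries, and Atf3, at 0.259 to 0.813 FPKM, did not pass in either knockout, with adjusted p from 0.565 to 0.987. Herpud1 had 17.9 and 21.6 FPKM in KO2 and 18.4 and 16.3 FPKM in KO7, against 17.1 and 15.3 FPKM in wild type, with adjusted p of 0.432 in KO2 and 0.775 in KO7. Trib3 had 0.733 and 1.13 FPKM in KO2 and 0.878 and 0.374 FPKM in KO7, against 0.441 and 0.917 FPKM in wild type, and the libraries overlapped.

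None of the 77 other pathway genes passed in E19.5 KO2 (limma, 12 at an unadjusted p under 0.05), where 1.28% of all genes did. In KO7, 2 of 77 passed, both from the ATF4 list, a smaller share than the 4.45% of all tested genes. Stc2, a secreted glycoprotein, had 2.44 and 2.70 FPKM in KO7, against 1.06 and 1.03 FPKM in wild type (0.81, adjusted p = 0.0134). Ddit4 had 44.1 and 35.7 FPKM in KO7, against 17.9 and 19.6 FPKM in wild type (1.04, adjusted p = 0.0342). Both calls ended when any KO7 or E19.5 wild-type library was left out (adjusted p 0.0625 to 0.113 for Stc2 and 0.0735 to 0.271 for Ddit4) and with both adult wild-type sets pooled (0.215 and 0.0618). Ddit4 passed in 4 of the 14 fits that left out 1 library, and Stc2 in 10. In KO2 the ATF4 list had 20 of 25 positive differences with a median of 0.20, against -0.01 for all tested genes. In KO7, set against the same wild-type libraries, it had 17 of 25 positive differences with a median of 0.14, against 0.005 for all tested genes.

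Markers of other cells also moved at E19.5. The meningeal and fibroblast sum (Col1a1, Col1a2, Col3a1, Dcn, Lum) was 144 to 162 FPKM in KO7, against 50.1 to 69.5 FPKM in wild type, with 5 of 5 higher by the test, and the red cell sum was 2477 to 2640 FPKM in KO7, against 95 to 519 FPKM in wild type, with 1 of 4 higher. In KO2 the astrocyte sum was 417 to 430 FPKM, against 179 to 214 FPKM in wild type, with 1 of 5 higher, and the oligodendrocyte sum was 68.0 to 134 FPKM, against 22.1 to 26.0 FPKM, with 2 of 4 higher. The endothelial sum was 86.8 to 109 FPKM in KO7 and 85.5 to 89.0 FPKM in KO2, against 56.5 to 60.1 FPKM in wild type, with 1 of 4 higher in each. In KO2 the neuron sum (463 to 514 FPKM, against 328 to 391 FPKM in wild type) and the choroid plexus sum (904 to 1338 FPKM, against 505 to 890 FPKM) stood apart with 0 of 4 called. The KO2 heat shock sum (67.5 to 69.8 FPKM, against 71.7 to 71.8 FPKM in wild type) was lower, with 0 of 5 called. The KO2 red cell sum (403 to 736 FPKM, against 95 to 519 FPKM in wild type) overlapped, with 1 of 4 higher. In KO7 the astrocyte sum (215 to 302 FPKM, against 179 to 214 FPKM in wild type) stood apart with 1 of 5 higher, the heat shock sum (75.5 to 81.6 FPKM, against 71.7 to 71.8 FPKM) with 0 of 5 called, and the immediate early sum (17.3 to 17.5 FPKM, against 29.6 to 33.4 FPKM) with 1 of 6 lower. The median log2 difference of the 5 astrocyte markers in KO7 was -0.06, so that higher sum did not hold for most of them. The part of all these markers in the differences of Atf4, Chac1, Stc2 and Ddit4 was not tested.

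For KO2 the change was also compared between ages, as the adult change minus the E19.5 change. None of 9 members passed (2 had an unadjusted p under 0.05), and 0.0628% of all tested genes did (9 by limma, with 2118 at an unadjusted p under 0.05). The Chac1 difference was -1.20 (95% interval -1.83 to -0.58, adjusted p = 0.118) and that of Hspa5 was 0.79 (interval 0.38 to 1.21, adjusted p = 0.119). Xbp1 passed, at 1.34 (adjusted p = 0.0460). Its values at E19.5 were 21.1 and 18.0 FPKM in KO2, against 25.9 and 26.5 FPKM in wild type, the reverse order of that in adults.

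Between E19.5 and adult brain the members that passed rose in wild type, while in KO2 they went both ways. In wild type (set 1), 2 of 9 members rose in adults and none fell, in a comparison that called 56% of all genes (21.9% higher, 34.1% lower). Ddit3 had 35.0 and 33.8 FPKM in adult wild type, against 11.0 and 9.56 FPKM at E19.5 (1.65, SE 0.27, adjusted p = 0.000311). Herpud1 had 24.4 and 24.8 FPKM in adults, against 17.1 and 15.3 FPKM at E19.5 (0.58, adjusted p = 0.0083). Atf4 did not pass: it had 46.7 and 44.4 FPKM in adults, against 52.8 and 54.0 FPKM at E19.5 (-0.22, adjusted p = 0.122).

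In KO2, 4 members rose in adults and 2 fell, where 49.3% of all genes were called (20.7% higher, 28.6% lower). Hspa5 (0.69, adjusted p = 0.00128), Herpud1 (0.82, adjusted p = 0.00126), Ddit3 (0.96, adjusted p = 0.0112) and Hsp90b1 (0.45, adjusted p = 0.0171) rose. Atf4 (-0.50, adjusted p = 0.00429) and Chac1 (-0.86, adjusted p = 0.00432) fell. The wild-type and KO2 stage changes share no library, and none of the 9 members differed between them by the test of the difference given above.

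Every synthetase that passed was lower in adults on the deposited scale, and the other ATF4 pathway genes went both ways. Of all tested genes, 21.9% were called higher and 34.1% lower in wild type, and 20.7% and 28.6% in KO2. In wild type 7 of 12 synthetases fell and none rose, among them Gars (41.1 FPKM in adults, against 79.2 FPKM at E19.5, -0.93), Eprs (-0.88), Tars (-0.88) and Lars (-0.87). In KO2 6 of 12 fell and none rose (Tars, Cars, Gars, Lars, Eprs and Mars), but 2 rose and 6 fell under median-of-ratios scaling. Of 25 other ATF4 pathway genes 4 rose and 6 fell in wild type (7 and 6 under median-of-ratios scaling), and 4 rose and 8 fell in KO2. Aldh1l2, a mitochondrial folate enzyme, averaged 1.55 FPKM in adult wild type, against 10.5 FPKM at E19.5 (-2.18, adjusted p = 8.75e-07), and Slc7a5, a transporter of large neutral amino acids, 14.9 FPKM in adults, against 47.3 FPKM at E19.5 (-1.60, adjusted p = 1.08e-06). The transporter Slc7a1 (-1.36) and the mitochondrial folate enzyme Mthfd2 (-1.25) fell in wild type, and Aldh1l2 (-2.18), Slc7a5 (-1.48), Slc7a1 (-1.04) and the serine enzyme Shmt2 (-0.89) in KO2.

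Folding and disposal genes were mixed with age, as were all tested genes (21.9% called higher and 34.1% lower in wild type, 20.7% and 28.6% in KO2). In wild type 4 of 17 other chaperones rose and 7 fell (5 and 3 under median-of-ratios scaling), with Sil1, the exchange factor of BiP, higher (0.78) and Ppib (-0.83), P4hb (-0.76) and Manf (-0.63) lower. In KO2 7 rose and 2 fell, with the BiP co-chaperones Dnajb9 (0.71) and Dnajc3 (0.69) higher and Ppib (-0.63) and P4hb (-0.55) lower. Of 11 degradation genes Derl3 (0.88) rose and Vcp (-0.78), Edem3 (-0.80), Derl2 (-0.51) and Edem1 (-0.39) fell in wild type (3 rose and 3 fell under median-of-ratios scaling), and Vcp alone (-0.40) in KO2. Atf6 rose in wild type, with 10.6 FPKM in adults against 4.44 FPKM at E19.5 (1.08, adjusted p = 0.00162), and in KO2 (1.02), where Xbp1 rose as well, with 54.9 and 56.8 FPKM in adults against 21.1 and 18.0 FPKM at E19.5 (1.47, adjusted p = 1.02e-05). Eif2s1 (-0.70), the gene for eIF2 alpha, fell in wild type, and Eif2b5 and Atf6b fell in both genotypes. The median of all genes was itself -0.15 in wild type and -0.09 in KO2. Median-of-ratios scaling moved the wild-type median by 0.153, and the calls over all genes then split into 4041 higher and 3830 lower, against 3135 and 4885 on the deposited scale. Cell type markers moved too: all 4 oligodendrocyte markers were higher in adult wild type (2173 to 2846 FPKM in sum, against 22.1 to 26.0 FPKM at E19.5), and their part was not tested.

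**Figure D5:**
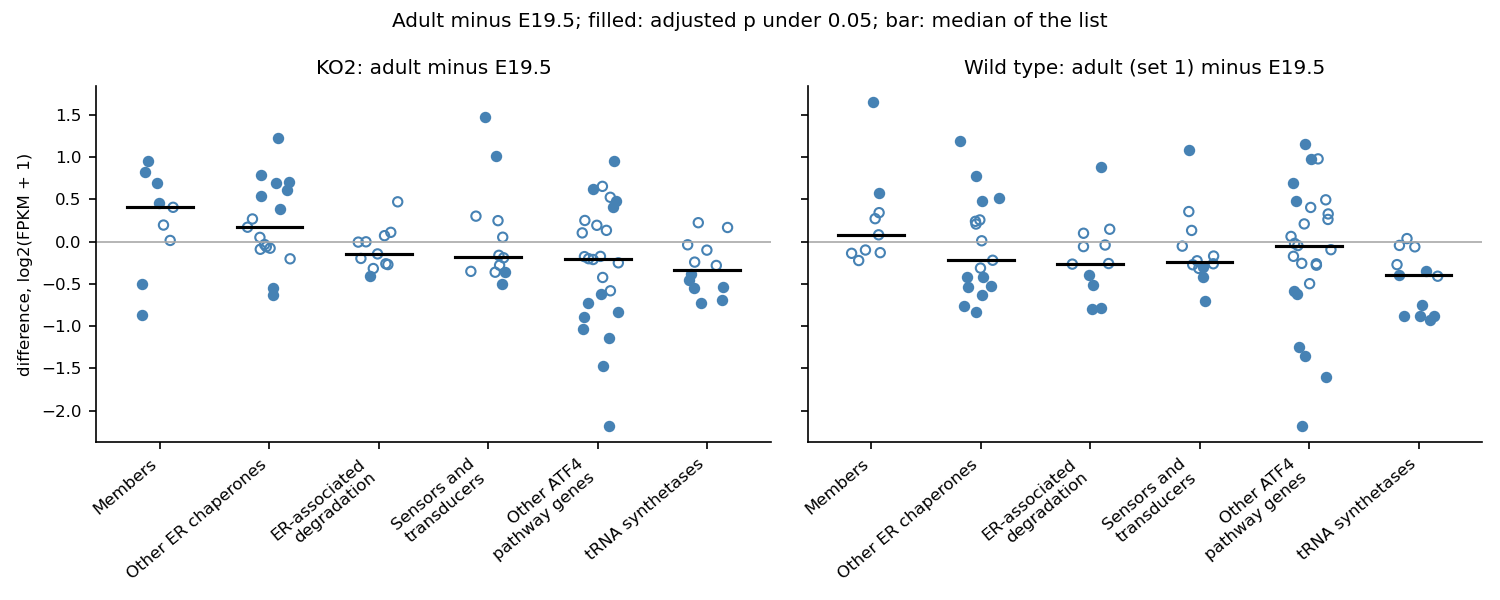
Difference between adult and E19.5 brain (y axis, log2(FPKM + 1)) for the 9 tested members and 5 lists of pathway genes, in KO2 (left) and wild type (right); each point is a gene, filled where the adjusted p is under 0.05, and bars are list medians. On this deposited scale the synthetase points that passed are all below 0, while the members include Ddit3 at 1.65 in wild type and Chac1 at -0.86 in KO2.

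Some members varied together in pairs over the 14 libraries, given as a description since the libraries share groups and scaling. Pearson's r of log2(FPKM + 1) was 0.925 for Hspa5 with Hsp90b1 and 0.876 for Ddit3 with Herpud1, but 0.053 for Atf4 with Ddit3. After group means were removed, r was 0.927 for Atf4 with Ddit3, 0.867 for Ddit3 with Herpud1 and 0.885 for Hspa5 with Hsp90b1. With 2 libraries a group these deviations mirror each other, so they hold 7 independent differences. The widest of these for Atf4, Ddit3 and Herpud1 was between the 2 adult KO3 libraries. Ddit3 had 29.8 and 63.6 FPKM there, Atf4 77.5 and 95.6 FPKM and Herpud1 37.4 and 49.4 FPKM. How far r rests on that pair was not tested. The genes whose levels were most like Hspa5 over the 14 libraries were Wbp4 (r = 0.932), Gabarapl2, Mphosph8, Hsp90b1 and Vdac2, and those most like it in deviations from the group means were Rnf149 (r = 0.958), Rhob, Ccdc61, Pgk1 and Cd63. Those most like Asns in level were the asparaginyl-tRNA synthetase gene Nars (r = 0.934), Tmem248, Esf1, Scoc and Srpk2, and in deviations Csk (r = 0.965), Mta1, Bdh1, Pla2g15 and Poldip2.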

How the data were processed

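Expression was measured by poly(A) RNA-seq of total RNA extracted with TRIzol, per the labels. The authors deposited FPKM per gene and library in 1 table. CASAVA, TopHat2 2.1.1, Cufflinks 2.2.1 and the build mm9 are named, per the submitters' processing notes. The annotation, strand use, filters and the handling of reads shared by near-identical genes: not given in the sources used here. The header word FPKM stands over 10 columns, and the 4 columns without it (adult KO3, wild-type set 2) were taken as FPKM. Entries naming no gene (2) were left out. Read totals cannot be had from FPKM, so the depth is unknown and values carry no counting interval. Each library had 12701 to 13398 genes at 1 FPKM or more.

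Groups came from the sample titles. Values were tested as log2(FPKM + 1), which understates changes of low genes, with limma 3.58.1 (trend, R 4.3.3) in 1 fit over 14 libraries in 7 groups with 7 residual degrees of freedom, 2-sided. The fit took the 14322 genes that reached 1 FPKM in 2 libraries or more, and p-values were adjusted over all of them (Benjamini-Hochberg, threshold 0.05). "Passed", "called", "rose" and "fell" refer to that threshold. The code was tested on simulated data. Promoter windows are RefSeq's, on GRCm38.p6, and were matched by symbol, not by mm9 coordinates.

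The members, pathway lists, markers and tests were chosen with earlier results of these data known. All members are named, and of each pathway list the genes that passed, or the 4 with the smallest p where more than 6 did. Alternatives were other pseudocounts, filters and scalings, pooled wild-type sets, fits of the compared groups only, a replicate block and each library left out. Leaving out the second or all of the KO3 and set 2 libraries was added after seeing the data.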

Additional observations from a re-analysis of the deposited data

Results flagged for a closer look

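The KO2 change of Xbp1 differed between ages by a test of the difference itself. It was 1.34 (log2, adult change minus E19.5 change, SE 0.20, limma adjusted p = 0.0460), with both adult KO2 libraries above both set 1 libraries and both E19.5 KO2 libraries below both E19.5 wild-type libraries. The adjusted p was 0.0674 with a replicate block, 0.0529 with median-of-ratios scaling and 0.429 with both adult wild-type sets pooled. The difference passed in 4 of the 14 fits that each left out 1 library (adjusted p 0.0140 to 0.149).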

How the results depend on the processing

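The counts of members called were the same as reported in every comparison under pseudocounts 0.1 and 10, a minimum of 5 FPKM, values below 1 FPKM set to 1 and the replicate block, and adult KO2 had 0 under all alternatives. Other counts moved as follows, and the cause was not tested. Without the filter, 2 members passed in KO3 (4 as reported), 2 in E19.5 KO2 (1 as reported) and 7 in KO2 by age (6 as reported). Under quantile scaling, 2 passed in KO3, 2 in E19.5 KO2 and 6 between the wild-type sets (2 as reported). Under median-of-ratios scaling, 3 passed in wild type by age (2 as reported), 7 in KO2 by age and 3 between the sets. With the adult sets pooled, 0 passed in E19.5 KO2, 0 in E19.5 KO7 (1 as reported), 3 in wild type by age, 5 in KO2 by age and 2 in the difference of adult changes (0 as reported). In fits of the compared groups only, 0 passed in KO3 and 1 in the difference of KO2 changes (0 as reported). With the second KO3 and set 2 libraries out, 0 passed in KO3, 3 in E19.5 KO2, 3 in E19.5 KO7, 4 in wild type by age (2 as reported), 4 between the sets and 1 in the difference of KO2 changes. With all KO3 and set 2 libraries out, 3 passed in E19.5 KO2, 3 in E19.5 KO7, 4 in wild type by age and 1 in the difference of KO2 changes.

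Leaving out each library in turn gave 0 to 5 members in KO3, 0 in adult KO2, 0 to 3 in E19.5 KO2, 0 to 3 in E19.5 KO7, 4 to 6 in KO2 by age (6 as reported), 1 to 4 in wild type by age, 0 to 5 between the sets, 0 to 1 in the difference of KO2 changes and 0 to 3 in that of adult changes. Over all genes, adult KO2 called 22 as reported, 65 without the filter, 14 at 5 FPKM, 7 with pooled sets, 0 in its own groups, 59 with the second and 49 with all KO3 and set 2 libraries out, and 3 to 36 leaving out 1 library. KO3 called 3164 as reported, 1751 without the filter, 6 in its own groups, 167 with the second libraries out, and 8 to 6780 leaving out 1 library. E19.5 KO2 called 183 as reported, 391 without the filter, 121 at 5 FPKM, 291 under quantile scaling, 38 with pooled sets, 333 in its own groups, 591 with the second or all KO3 and set 2 libraries out, and 6 to 529 leaving out 1 library. E19.5 KO7 called 637 as reported, 410 at 5 FPKM, 145 with pooled sets, 1692 with the second and 1696 with all KO3 and set 2 libraries out, and 49 to 1552 leaving out 1 library.

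Of the member differences that passed, that of Hspa5 in KO3 alone changed sign, and others changed sign that had not passed. In KO3, quantile scaling gave Hspa5 -0.075, Calr -0.24 and Asns -0.060, pooled sets gave Chac1 -0.059, and leaving out the second KO3 and set 2 libraries gave Atf3 -0.36 and Chac1 -0.083. Leaving out 1 library gave -0.12 to 0.92 for Atf3 and -0.015 to 0.38 for Asns there. In adult KO2, Ddit3 was -0.021 under quantile and -0.046 under median-of-ratios scaling, Chac1 0.12 and Hsp90b1 -0.034 with pooled sets, and leaving out 1 library gave -0.025 to 0.050 for Ddit3 and -0.30 to 0.010 for Chac1. In E19.5 KO2, Atf3 was 0.045 with pseudocount 0.1, and leaving out 1 library gave -0.28 to 0.24 for Atf3, -0.16 to 0.058 for Asns, -0.050 to 0.15 for Hsp90b1 and -0.074 to 0.37 for Calr. In E19.5 KO7, Atf3 ran from -0.30 to 0.23.

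The labels do not say whether the replicate numbers of the titles mark a shared source. Correlations of same-numbered deviations between groups ran from -0.333 to 0.233 (median 0.0324, 21 pairs of groups), and 8 pairs were over 0.1. Among compared groups they were 0.233 for adult KO2 with set 1 and 0.127 for KO3 with set 2. With E19.5 wild type they were -0.158 for E19.5 KO2 and -0.0868 for KO7. A shared source was not settled by these values. The replicate block called 2963 genes in KO3, 139 in E19.5 KO2, 535 in E19.5 KO7 and 21 in adult KO2, and the calls of Eif2ak4, Nars, Tars and Creld2 in KO3 and of the Xbp1 difference ended under it.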
